A study of Homo sapiens with 9 samples.

Results

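Metallothioneins are small, cysteine-rich proteins that bind zinc, copper and cadmium ions and scavenge reactive oxygen species. Their genes are switched on by zinc through MTF1, a zinc finger transcription factor that binds metal response elements in their promoters, and several of them also respond to glucocorticoids. In breast tumours, metallothionein genes have been studied as markers of proliferation and of drug resistance. The genes described here are the 6 metallothionein genes MT2A, MT1E, MT1X, MT1F, MT1M and MT1G and the gene of their regulator, MTF1. They were taken by symbol from a table of 27548 rows, 1 per Ensembl gene, and each of the 7 symbols stood on 1 row only, so no choice between rows was needed.

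The cells were MDA-MB-231, an established human line of triple-negative breast cancer, and their mRNA was sequenced in 3 groups of 3 libraries. In TLX+siTLX (libraries S7 to S9), cells overexpressing the nuclear receptor TLX, the product of NR2E1, had received an siRNA against TLX. In TLX+siCTL (S4 to S6) the same overexpressing cells had a control siRNA, and in CTL+siCTL (S1 to S3) control cells had the control siRNA. All cells were transfected for 48 h, so both arms of overexpressing cells and the control cells share transfection with an siRNA. TLX is an orphan nuclear receptor best known as a transcriptional repressor in neural stem cells, and the comparisons ask how expression differs with TLX overexpression and with its knockdown. The sources used here do not give how TLX was overexpressed, whether the cells were 1 clone, or whether replicates came from separate cultures. The spread behind each p-value is that between these libraries and may be technical. The name PC3, that of a prostate line, stands unexplained in the titles of the control samples.

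The values are log2 CPM, reads per 1 M reads of a library. Over all rows these CPM summed to 983455 in S5 and to 1021551 in S7. Library sizes were therefore probably adjusted before deposit, by a method not established here. The lowest value, -5.33, was the same in all 9 libraries and was taken as that of 0 reads. It fixes the ratio of a prior count to the library size, and CPM below are given without that prior. A prior count of 2 was assumed, which gives a mean library size of 80.5 M reads, and read numbers and their intervals rest on that assumption. NR2E1 had log2 CPM of -2.61, -3.40 and -1.77 in TLX+siTLX, 0.28, -0.84 and 0.23 in TLX+siCTL and -4.59, -4.28 and -4.50 in CTL+siCTL. The 3 groups did not overlap, and NR2E1 in TLX+siCTL was above CTL+siCTL by 4.35 ± 0.47 (SE) on the log2 scale (limma, adjusted p = 0.000133), differed by -2.48 ± 0.47 between TLX+siTLX and TLX+siCTL (limma, adjusted p = 0.00494), and by 1.86 ± 0.47 between TLX+siTLX and CTL+siCTL (limma, adjusted p = 0.0134). S9 differed most from the others of its group, with an SD of log2 differences over rows of 0.250 from S7 and 0.216 from S8, against 0.197 between S7 and S8. The 6 marker genes of the cell line (VIM, CD44, AXL, CAV1, ZEB1, EGFR) summed to 5341 to 5604 CPM in TLX+siTLX, 4102 to 4234 CPM in TLX+siCTL and 3566 to 3673 CPM in CTL+siCTL. The 6 prostate markers summed to 27.5 to 35.2 CPM over all 9 libraries, and KLK3 and HOXB13 were close to 0 reads. The 6 luminal breast markers summed to 556 to 597 CPM in TLX+siTLX, 381 to 396 CPM in TLX+siCTL and 485 to 509 CPM in CTL+siCTL, and the 4 blood and endothelial markers to 1.51 to 2.69 CPM over all libraries. No marker was at 0 in all 9 libraries. Single markers went different ways. In TLX+siCTL against CTL+siCTL, log2 fold changes were below 0 for VIM (-0.64) and ZEB1 (-0.38). They were above 0 for CD44 (0.46), AXL (1.13), CAV1 (0.96) and EGFR (0.34). The luminal markers at a mean log2 CPM of 1 or more were KRT8 (-0.49), GATA3 (0.93) and ERBB2 (0.22) in that comparison. In TLX+siTLX against TLX+siCTL these had 0.65, 0.93 and 0.02. The marker sums differ between the groups, and their part in the results below was not tested.

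On GRCh38 with the GENCODE 29 annotation, the 6 metallothionein genes lie within one cluster on chromosome 16. MT2A is at chr16:56608199-56609497, MT1E at chr16:56625475-56627112, MT1M at chr16:56632233-56633986, MT1F at chr16:56657694-56660698 and MT1X at chr16:56682424-56684196, all on the plus strand. MT1G, at chr16:56666731-56668065, is on the minus strand. MTF1 is elsewhere, at chr1:37809567-37859620 on the minus strand. All 7 are annotated as protein-coding.

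The RefSeq promoter table held 3 of the 7 genes (MT2A, MT1X and MTF1). The 2 metallothionein promoters are printed here because they hold matches to the core of the metal response element, the motif that MTF1 is known to bind. The 250 bases before the RefSeq start are given for GRCh38.p14, chr16:56608334-56608583 (plus strand) for MT2A and chr16:56682220-56682469 (plus strand) for MT1X, with each match to the core TGCACNC or TGCGCNC, on either strand, in capitals.
MT2A promoter: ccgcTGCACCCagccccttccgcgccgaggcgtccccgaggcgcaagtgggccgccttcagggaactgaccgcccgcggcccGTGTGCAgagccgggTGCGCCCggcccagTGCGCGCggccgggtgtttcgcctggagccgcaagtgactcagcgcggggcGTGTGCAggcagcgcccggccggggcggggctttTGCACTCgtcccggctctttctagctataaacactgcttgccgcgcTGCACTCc
MT1X promoter: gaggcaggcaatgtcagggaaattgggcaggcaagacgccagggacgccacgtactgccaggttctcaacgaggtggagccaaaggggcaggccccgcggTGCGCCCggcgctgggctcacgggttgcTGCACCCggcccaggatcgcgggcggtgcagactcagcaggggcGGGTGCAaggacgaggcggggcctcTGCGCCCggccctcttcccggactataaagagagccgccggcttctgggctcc
MT2A held 7 matches, 5 on the plus and 2 on the minus strand, between 8 and 246 bases before the start. MT1X held 4, of which 3 were on the plus strand, between 53 and 150 bases before the start. At least 1 match was found in 24.83% of the 35116 promoters of that length in the table, at least 4 in 0.37% and at least 7 in 0.0313%. The MTF1 promoter window, chr1:37859593-37859842, held 0 of these matches. The TLX half-site AAGTCA, searched on both strands and overlapping none of these cores, had 0 matches in the 3 windows and at least 1 in 10.86% of all promoters. GENCODE 29 begins both metallothionein genes upstream of the RefSeq start, so other transcripts may have another promoter, and a match or its absence says only which letters are in the window.

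The family is also hard to count. The coding sequences of the 5 metallothionein genes with more than a few reads, from GENCODE 29 and without the stop codon, are given below to show how little separates them. Capitals mark the 34 of 183 positions at which the 5 differ from each other.
MT2A coding: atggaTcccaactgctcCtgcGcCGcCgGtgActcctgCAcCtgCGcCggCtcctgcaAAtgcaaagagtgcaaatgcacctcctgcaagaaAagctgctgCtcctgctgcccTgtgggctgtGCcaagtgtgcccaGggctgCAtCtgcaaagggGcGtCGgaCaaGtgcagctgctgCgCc
MT1E coding: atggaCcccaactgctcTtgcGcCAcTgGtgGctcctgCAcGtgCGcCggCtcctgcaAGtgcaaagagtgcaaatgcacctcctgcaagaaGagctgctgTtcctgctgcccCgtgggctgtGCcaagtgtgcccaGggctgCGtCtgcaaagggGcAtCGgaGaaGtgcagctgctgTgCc
MT1X coding: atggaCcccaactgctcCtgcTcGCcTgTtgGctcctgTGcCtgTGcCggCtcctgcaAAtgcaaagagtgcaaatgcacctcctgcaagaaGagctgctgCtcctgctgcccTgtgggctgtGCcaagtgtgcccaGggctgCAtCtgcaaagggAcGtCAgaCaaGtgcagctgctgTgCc
MT1F coding: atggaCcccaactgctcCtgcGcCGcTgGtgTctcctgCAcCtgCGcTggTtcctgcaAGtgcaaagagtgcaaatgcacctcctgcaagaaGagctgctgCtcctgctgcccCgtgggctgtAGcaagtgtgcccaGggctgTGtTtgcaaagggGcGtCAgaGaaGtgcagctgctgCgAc
MT1M coding: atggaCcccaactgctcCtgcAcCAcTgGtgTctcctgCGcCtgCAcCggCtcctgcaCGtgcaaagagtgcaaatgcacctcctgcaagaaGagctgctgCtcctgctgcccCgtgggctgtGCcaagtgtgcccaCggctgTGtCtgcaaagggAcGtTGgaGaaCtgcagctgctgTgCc
Each has 61 codons, 20 of which code for cysteine, the residue that holds the metal. Identity between pairs was from 88.5% (MT1X and MT1F) to 92.3% (MT2A with MT1E, MT2A with MT1X and MT1E with MT1M), and the longest identical run was 64 bases, between MT1F and MT1M. Over whole transcripts, 31-base runs that also occur in a transcript of another gene made up 48.1% of MT1X, 31.5% of MT1G, 18.8% of MT1M, 15.3% of MT1E, 12.2% of MT2A and 8.33% of MT1F, in the lowest-numbered protein-coding transcript of each. Reads from the shared stretches can be assigned to the wrong gene, which matters most for a rare gene beside abundant ones. The split between these genes is therefore uncertain.

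MT2A was the most abundant metallothionein in each group. It had 196, 237 and 198 CPM in TLX+siTLX, 233, 245 and 210 CPM in TLX+siCTL and 198, 204 and 178 CPM in CTL+siCTL. MT1E had 59.5, 71.9 and 58.8 CPM in TLX+siTLX, 74.6, 85.4 and 71.9 CPM in TLX+siCTL and 41.8, 41.7 and 35.9 CPM in CTL+siCTL. For MT2A the 3 groups lay close together, while every library of overexpressing cells was above every control library for MT1E. Of all rows, 20.5% had TLX+siCTL and 21% had TLX+siTLX wholly above CTL+siCTL. In bulk RNA, fewer cells with a transcript and less of it per cell cannot be told apart, here and in all that follows.

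MT1X had 24.1, 25.9 and 21.7 CPM in TLX+siTLX, 30.0, 31.4 and 26.3 CPM in TLX+siCTL and 21.1, 22.8 and 18.3 CPM in CTL+siCTL. Its TLX+siCTL libraries were above all others. Of all rows, 20.5% had TLX+siCTL wholly above CTL+siCTL and 16.5% had TLX+siTLX wholly below TLX+siCTL. The share with TLX+siCTL above both other groups was not counted. MT1F had 3.70, 3.65 and 2.26 CPM in TLX+siTLX, 5.92, 6.44 and 5.55 CPM in TLX+siCTL and 2.76, 2.68 and 2.09 CPM in CTL+siCTL. The lowest of the TLX+siTLX values for MT1F was that of S9, which lay among the control libraries.

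MT1M was expressed at a low level, with 0.209, 0.235 and 0.195 CPM in TLX+siTLX, 0.577, 0.598 and 0.617 CPM in TLX+siCTL and 0.285, 0.289 and 0.257 CPM in CTL+siCTL. These correspond to 15.7 to 18.9 reads a library in TLX+siTLX, 46.5 to 49.7 in TLX+siCTL and 20.7 to 23.2 in CTL+siCTL, at the mean library size. All 3 groups were apart from each other for MT1M, with TLX+siTLX the lowest. Of all rows, 16.5% had TLX+siTLX wholly below TLX+siCTL and 21.2% had it wholly below CTL+siCTL. The share with all 3 groups apart was not counted. MT1G was at 0 reads in 1 library of TLX+siTLX, 2 of TLX+siCTL and 2 of CTL+siCTL and at 0.881 to 1.09 reads in the others, so no fold change is given for it.

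MTF1, the regulator, had 61.8, 55.4 and 43.2 CPM in TLX+siTLX, 58.1, 60.7 and 64.5 CPM in TLX+siCTL and 56.1, 64.3 and 54.2 CPM in CTL+siCTL. The 3 groups overlapped, and the value of S9 was the lowest of the 9.

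**Figure D1:**
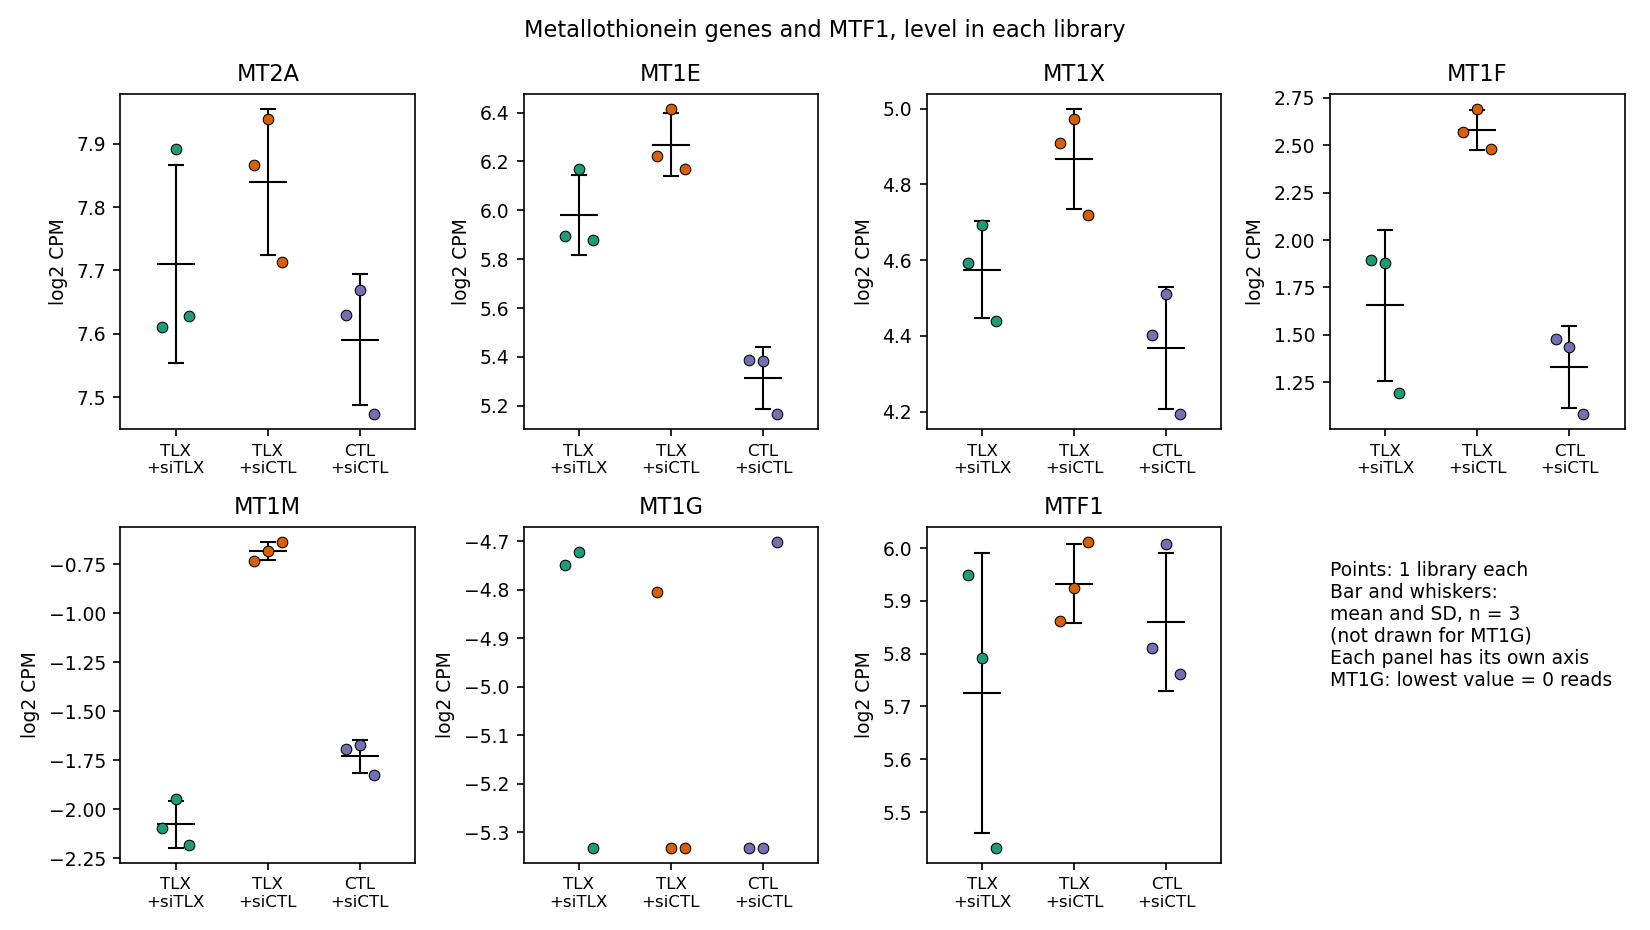
Log2 CPM (vertical axes, each panel with its own scale) of the 6 metallothionein genes and MTF1 in the 9 libraries, by group. Points are libraries and bars with whiskers are means with SD (n = 3), not drawn for MT1G. The 3 TLX+siCTL libraries are above the 6 others for MT1X, MT1F and MT1M, and the control libraries are below the 6 others for MT1E. Of all rows, 20.5% had TLX+siCTL wholly above CTL+siCTL and 16.5% had TLX+siTLX wholly below TLX+siCTL. The share with a group apart from both others was not counted.

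Per kb of coding sequence, mean levels ran MT2A, MT1E, MT1X, then MTF1 and MT1F, then MT1M, with MT1G last, in each group. MT2A came first, with 1149 ± 128 CPM per kb in TLX+siTLX, 1254 ± 99.1 in TLX+siCTL and 1055 ± 74.4 in CTL+siCTL (SD, n = 3 each). MT1E followed with 347 ± 40.4, 422 ± 38.8 and 218 ± 18.6 CPM per kb in the same 3 groups, then MT1X with 130 ± 11.5, 160 ± 14.3 and 113 ± 12.4 CPM per kb. MTF1, with 23.7 ± 4.19 CPM per kb in TLX+siTLX, 27.1 ± 1.41 in TLX+siCTL and 25.8 ± 2.39 in CTL+siCTL, was below MT1F in TLX+siCTL and above it in the other groups. MT1F had 17.5 ± 4.45 CPM per kb in TLX+siTLX, 32.6 ± 2.45 in TLX+siCTL and 13.7 ± 1.99 in CTL+siCTL. MT1F and MTF1 in TLX+siTLX were the one pair of neighbours in this order whose libraries overlapped. MT1M had 1.16 ± 0.11, 3.26 ± 0.11 and 1.51 ± 0.09 CPM per kb. The untranslated ends, which differ in length between transcripts, are not in these lengths.

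The first comparison asks what accompanied TLX overexpression. In TLX+siCTL relative to CTL+siCTL, 4 of the 6 metallothionein genes rose, with MT1F the largest, and MTF1 did not pass the test. Over all rows tested, 15% rose and 15.1% fell in this comparison at a limma adjusted p under 0.05 (29.3% and 27.4% of rows at a mean log2 CPM of 1 or more), and the median log2 fold change of all rows was 0. Rises were 49.9% of the calls, and 64.9% with library medians of all rows centred. Calls were thus common in general, and all 5 metallothioneins with measurable levels had a positive log2 fold change.

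MT1F, a metal-inducible MT1 isoform, was higher by 1.25 ± 0.20 on the log2 scale (2.38-fold, limma, adjusted p = 0.00129) in TLX+siCTL. MT1M, another MT1 isoform, was higher by 1.04 ± 0.22 (limma, adjusted p = 0.00562; 0.32 on log2(CPM + 1)), and its summed reads were 144.3 in TLX+siCTL and 66.9 in CTL+siCTL, a ratio of 2.16 with an exact 95% binomial interval of 1.60 to 2.92 that covers counting error only. MT1E, an MT1 isoform expressed in breast epithelium, was higher by 0.96 ± 0.10 (1.94-fold, limma, adjusted p = 0.00011). MT1X, a widely expressed zinc-inducible isoform, was higher by 0.50 ± 0.10 (1.41-fold, limma, adjusted p = 0.00525). For these 4 genes the TLX+siCTL libraries were all above the CTL+siCTL libraries, as for 20.5% of all rows (21% were all below).

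MT2A, the main isoform of most human cells, had a log2 fold change of 0.25 ± 0.09 (limma, adjusted p = 0.074). Its 3 TLX+siCTL libraries were above the 3 control libraries, as for 20.5% of all rows, but the difference missed the threshold. It passed in 5 of the 18 alternatives tried, and its limma adjusted p over the 18 was from 0.00819 to 0.248. The authors' deposited table gives a fold change of 1.19 with a false discovery rate of 0.0525 for it. MTF1 had a log2 fold change of 0.07 ± 0.12 (limma, adjusted p = 0.729), with overlapping groups.

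The second comparison asks what accompanied knockdown of TLX in the overexpressing cells. In TLX+siTLX relative to TLX+siCTL, 2 of the 6 metallothionein genes fell, MT1M and MT1F, and none rose. Of all rows, 12.7% rose and 10.9% fell (23.8% and 22% of rows at a mean log2 CPM of 1 or more), with a median log2 fold change of 0. Rises were 53.8% of the calls, and 29.9% with library medians of all rows centred. This comparison and the first share the TLX+siCTL libraries, and the third shares libraries with both, so values are given side by side only.

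MT1M fell by 1.39 on the log2 scale (SE 0.22, limma, adjusted p = 0.00178), and its value on log2(CPM + 1) was -0.39. Its summed reads were 51.5 in TLX+siTLX and 144.3 in TLX+siCTL, a ratio of 0.357 with an exact 95% binomial interval of 0.252 to 0.491 for counting error. MT1F fell by 0.93 (SE 0.20, limma, adjusted p = 0.00926). For both genes the TLX+siTLX libraries were all below the TLX+siCTL libraries, as for 16.5% of all rows (17.4% were all above). Without S5, a TLX+siCTL library, the log2 fold change of MT1F was -0.87 and its adjusted p 0.051.

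MT1E had a log2 fold change of -0.29 ± 0.10 (limma, adjusted p = 0.0739) and MT1X one of -0.29 ± 0.10 (limma, adjusted p = 0.0736). The groups touched for MT1E, where the lowest TLX+siCTL and the highest TLX+siTLX library were both at 71.9 CPM, and did not overlap for MT1X. Each of these 2 genes passed in 4 of the 18 alternatives, with adjusted p over the 18 from 0.00753 to 0.256 for MT1E and from 0.0089 to 0.244 for MT1X. The authors' deposited table has both under a false discovery rate of 0.05, with a signed fold change of -1.22 and a rate of 0.0397 for MT1E and of -1.23 and 0.0443 for MT1X. MT2A had a log2 fold change of -0.13 ± 0.09 (limma, adjusted p = 0.404) and MTF1 one of -0.21 ± 0.12 (limma, adjusted p = 0.304), with overlapping groups.

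The third comparison sets the overexpressing cells with knockdown against the control cells. In TLX+siTLX relative to CTL+siCTL, 1 of the 6 metallothionein genes, MT1E, rose. Of all rows, 17.7% rose and 17% fell (32.4% and 31.2% of rows at a mean log2 CPM of 1 or more). MT1E was higher by 0.67 ± 0.10 (1.59-fold, limma, adjusted p = 0.00072), and all TLX+siTLX libraries were above all controls, as for 21% of all rows. In the other genes, log2 fold changes were 0.12 ± 0.09 for MT2A (limma, adjusted p = 0.391), 0.21 ± 0.10 for MT1X (limma, adjusted p = 0.167), 0.32 ± 0.20 for MT1F (limma, adjusted p = 0.275), -0.34 ± 0.22 for MT1M (limma, adjusted p = 0.287) and -0.13 ± 0.12 for MTF1 (limma, adjusted p = 0.463). MT1F passed without S9, with a log2 fold change of 0.55 and an adjusted p of 0.02. For MT1M all TLX+siTLX libraries were below all controls, as for 21.2% of all rows. It passed in 2 of the 17 alternatives that hold it, without the intensity trend (adjusted p = 0.0124) and on log2(CPM + 1) (adjusted p = 0.0243, limma), and its ratio of summed reads was 0.769 with an exact 95% interval for counting error of 0.518 to 1.11.

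**Figure D2:**
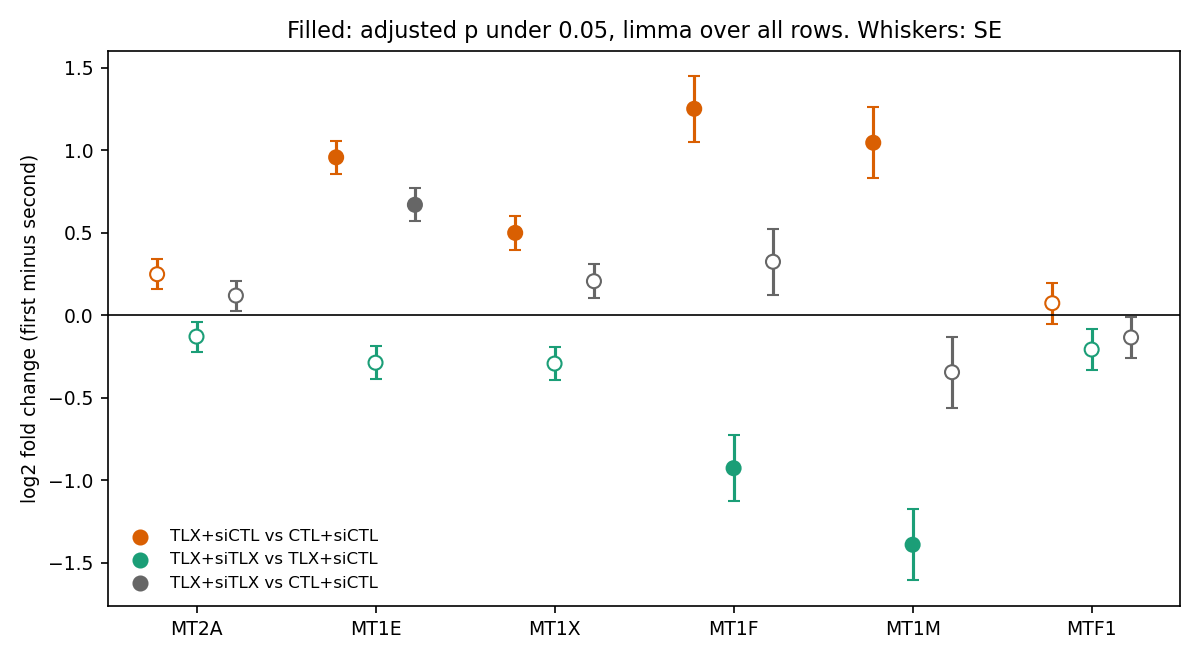
Log2 fold changes with SE (vertical axis) of 5 metallothionein genes and MTF1 in the 3 comparisons, the second-named group subtracted from the first. Filled points passed an adjusted p of 0.05. The 5 metallothioneins are above 0 in TLX+siCTL against CTL+siCTL and below 0 in TLX+siTLX against TLX+siCTL.

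The make-up of the family differed between the groups. The 6 metallothioneins summed to 301 ± 33.0 CPM in TLX+siTLX, 343 ± 27.5 CPM in TLX+siCTL and 256 ± 19.6 CPM in CTL+siCTL (SD, n = 3). MT2A made up 69.8% ± 0.7 of that sum in TLX+siTLX, 67.0% ± 0.7 in TLX+siCTL and 75.3% ± 0.5 in CTL+siCTL. The share of MT1E was 21.1% ± 0.1 in TLX+siTLX, 22.6% ± 0.8 in TLX+siCTL and 15.5% ± 0.3 in CTL+siCTL. These are shares of reads, and the control libraries had the smaller MT1E share in every case.

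Each gene was then set against MT2A within its library, which removes most of any scaling of whole libraries. These log2 ratios hold the prior count, so for a low gene such as MT1M the removal is not complete. The log2 ratio of MT1E to MT2A was -1.73 ± 0.02 in TLX+siTLX, -1.57 ± 0.07 in TLX+siCTL and -2.28 ± 0.03 in CTL+siCTL (SD, n = 3). The log2 ratio of MT1M to MT2A was -9.79 ± 0.07 in TLX+siTLX, -8.52 ± 0.15 in TLX+siCTL and -9.32 ± 0.02 in CTL+siCTL. For both genes the 3 groups did not overlap, but their order differed, since TLX+siTLX lay between the other groups for MT1E and below them for MT1M. How many of all rows have ratios to MT2A that separate the 3 groups was not counted. In an exact permutation test over the 1680 ways to split the 9 libraries in 3 groups, p was 0.00357 for both, the smallest this design allows (0.00714 adjusted over the 4 genes tested).

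The log2 ratio of MT1X to MT2A was -3.14 ± 0.10 in TLX+siTLX, -2.97 ± 0.02 in TLX+siCTL and -3.22 ± 0.06 in CTL+siCTL (exact permutation p = 0.0143, adjusted 0.0179). For MT1F it was -6.06 ± 0.36 in TLX+siTLX, -5.26 ± 0.03 in TLX+siCTL and -6.26 ± 0.12 in CTL+siCTL (exact permutation p = 0.0179, adjusted 0.0179). In both genes the TLX+siCTL libraries were above the 6 others, and TLX+siTLX overlapped with CTL+siCTL. The share of all rows with such ratios was not counted here either. Between single pairs of groups, 3 libraries against 3 cannot give an exact p below 0.10.

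**Figure D3:**
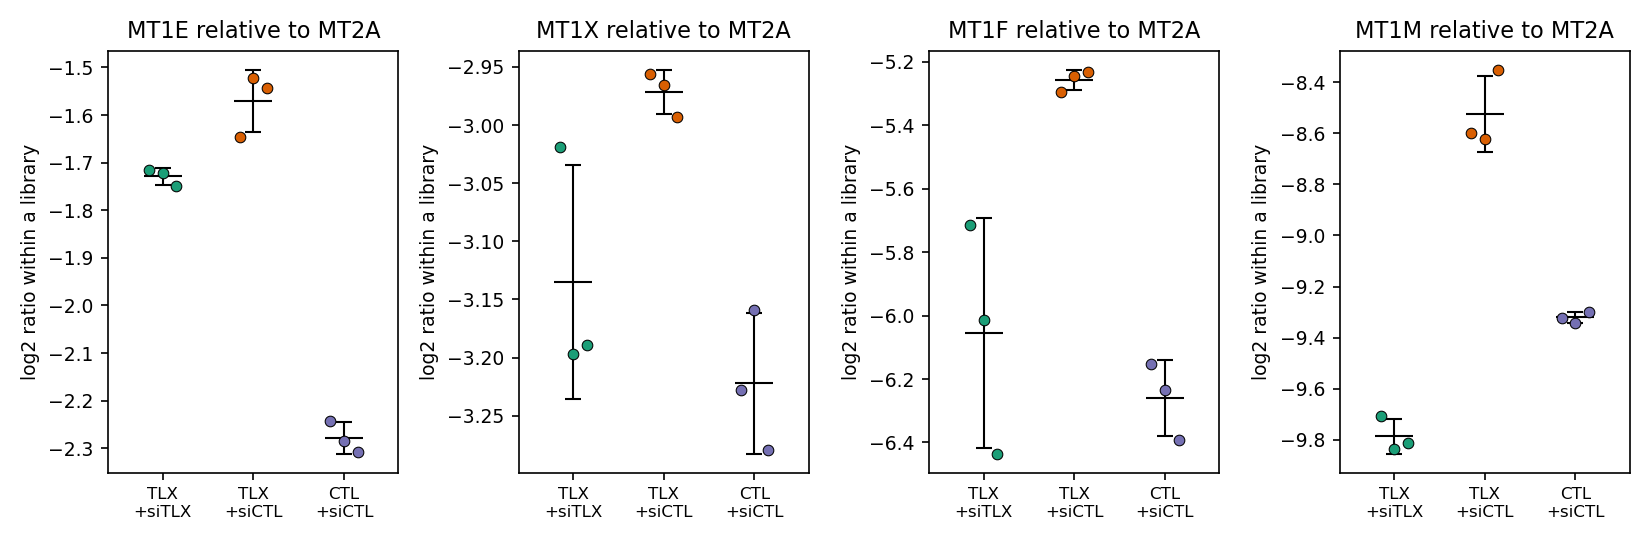
Log2 ratio of 4 metallothionein genes to MT2A within each library (vertical axes, each panel with its own scale), by group, with means and SD (n = 3). MT1E in TLX+siTLX is at about -1.73, against about -2.28 in CTL+siCTL, while MT1M in TLX+siTLX is at about -9.79, below CTL+siCTL at about -9.32.

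The rows most like each gene were sought among the 5277 rows at a mean log2 CPM of 1 or more and a span of group means of at least 0.5 (5276 where the gene itself was one of them), by the root mean square difference of centred log2 CPM over the 9 libraries. Among the 3 nearest to MT1X were KBTBD6 (0.061) and ORC5 (0.099). KBTBD6 (0.144) was also among the 3 nearest to MT2A, with NOP9 (0.144), yet MT1X itself was closer to MT2A (0.118), its span being just too small for the rule. Nearest to MT1E were PXMP4 (0.087), TMEM14B (0.090) and MANEAL (0.092), nearest to MT1F were DOCK9 (0.200), GLA (0.208) and CILK1 (0.210), and nearest to MT1M were TMEM201 (0.185), TPTEP1 (0.186) and PLD6 (0.213). Nearest to MTF1 were ZNF322 (0.151), HEATR5A (0.158) and ZBTB40 (0.160). No 2 of MT1E, MT1F and MT1M shared a nearest row.

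Of 15 other metallothionein genes and pseudogenes looked for, 6 were on a row (MT1A, MT1L, MT1JP, MT1DP, MT1XP1 and MT2P1), all with a mean log2 CPM below -2, and none passed limma's test in any of the 3 comparisons. The median log2 fold change of these 6 was 0.09 in TLX+siCTL against CTL+siCTL and 0.11 in TLX+siTLX against TLX+siCTL. The pseudogene MT1JP, which lies between MT1M and MT1A, had a log2 fold change of 1.12 ± 0.41 in TLX+siCTL against CTL+siCTL (limma, adjusted p = 0.075).

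Around the cluster, 10 other genes within 500 kb reached a mean log2 CPM of 1. In TLX+siCTL relative to CTL+siCTL 3 of them rose and 3 fell, with a median log2 fold change of 0.06, and in TLX+siTLX relative to TLX+siCTL 1 rose and 1 fell, with a median of -0.05. Among all rows at that mean, 29.3% rose and 27.4% fell in the first of these comparisons. In the second, 23.8% rose and 22% fell. The genes next to the cluster on the side of MT2A, BBS2 and OGFOD1, did not pass in either comparison, and NUP93, next to it on the side of MT1X, was higher by 0.27 ± 0.05 in TLX+siCTL (limma, adjusted p = 0.00346). GNAO1, encoding a G protein alpha subunit, was higher by 0.90 ± 0.08 in TLX+siCTL than in CTL+siCTL (limma, adjusted p = 3.36e-05) and again by 0.51 ± 0.08 in TLX+siTLX than in TLX+siCTL (limma, adjusted p = 0.00141). HERPUD1, an endoplasmic reticulum stress gene, fell in both, with log2 fold changes of -0.34 ± 0.06 (limma, adjusted p = 0.00238) and -0.60 ± 0.06 (limma, adjusted p = 0.000167). NLRC5, a regulator of MHC class I genes, rose by 0.67 ± 0.12 (limma, adjusted p = 0.0023) and PSME3IP1 fell by 0.36 (SE 0.06, limma, adjusted p = 0.0012) in TLX+siCTL.

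**Figure D4:**
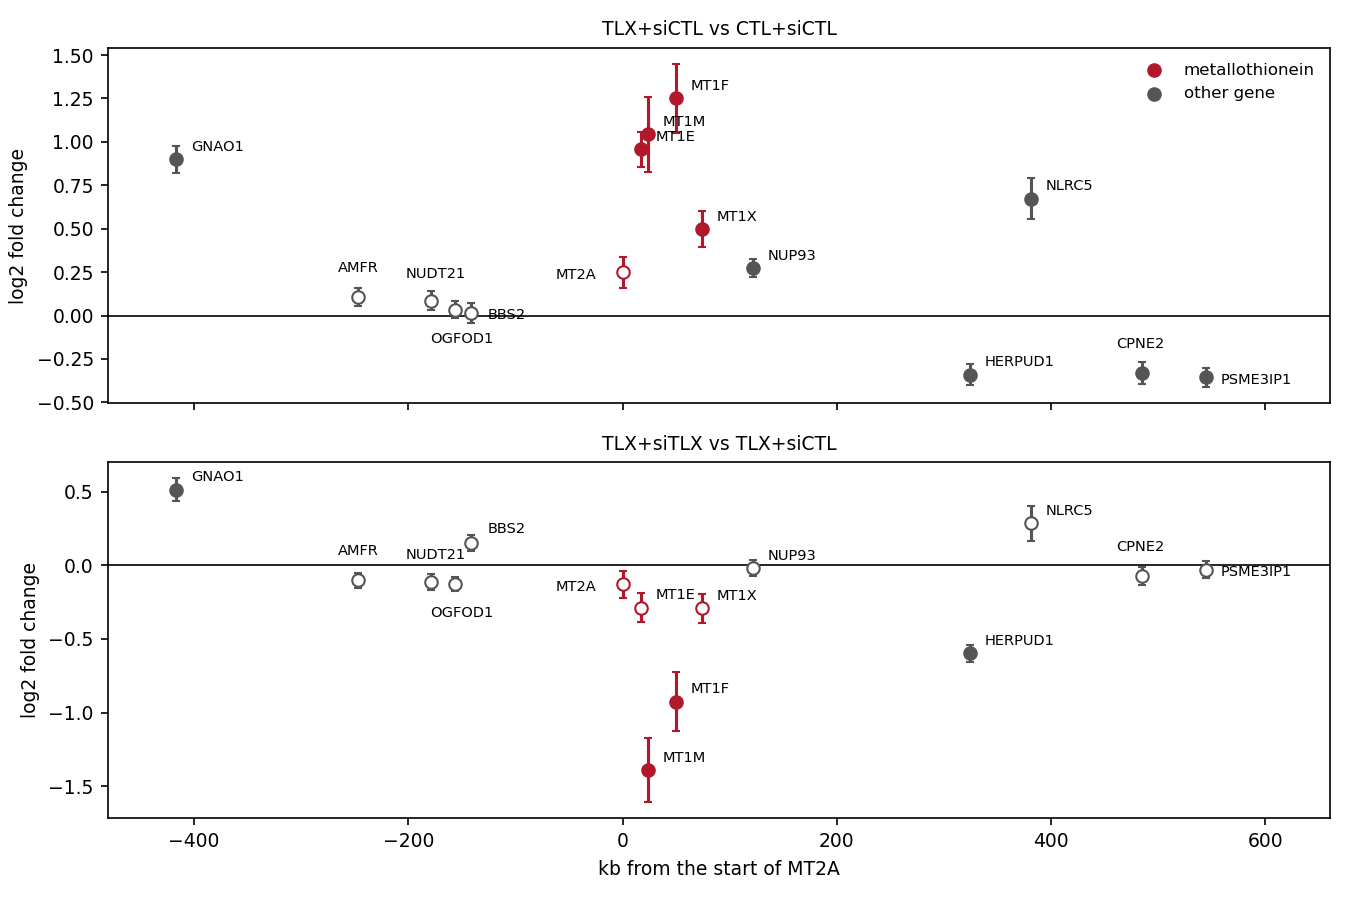
Log2 fold changes with SE (vertical axes) of genes around the metallothionein cluster against the distance of their start from that of MT2A in kb (horizontal axis), in the 2 comparisons with TLX+siCTL. Filled points passed an adjusted p of 0.05. MT1E, MT1M and MT1F stand between 0.96 and 1.25 in TLX+siCTL against CTL+siCTL, and MT1M and MT1F are the lowest in TLX+siTLX against TLX+siCTL.

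Zinc, the metal that MTF1 senses, is moved by the SLC30 exporters, which take it out of the cytosol, and the SLC39 importers, which bring it in. Of the 10 exporters, 6 reached a mean log2 CPM of 1. In TLX+siCTL relative to CTL+siCTL 2 of the 10 rose and 2 fell (median log2 fold change 0.02), whereas in TLX+siTLX relative to TLX+siCTL 6 fell and 0 rose (median -0.31). The 6 that fell are those 6 expressed ones. Among all rows at that mean, 29.3% rose and 27.4% fell in TLX+siCTL relative to CTL+siCTL. In TLX+siTLX relative to TLX+siCTL, the background of falls among such rows is 22%. Centring library medians of all rows shifts log2 fold changes by -0.14 in this comparison. Such a shift can only deepen a fall, so it is no test of the direction of the exporters.

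SLC30A1, the exporter of the plasma membrane and a classical MTF1 target, fell by 0.38 (SE 0.05, limma, adjusted p = 0.000498) in TLX+siTLX relative to TLX+siCTL. It also fell in TLX+siCTL relative to CTL+siCTL, with a log2 fold change of -0.16 ± 0.05 (limma, adjusted p = 0.0304), a call kept in 9 of 18 alternatives, with -0.04 (limma, adjusted p = 0.627) when medians of all rows were centred. It was lost without S1, S2, S3, S4, S5, S6 or S8 (limma, adjusted p up to 0.0995). SLC30A5 and SLC30A6, which work as a pair in the early secretory pathway, fell by 0.65 (SE 0.04, limma, adjusted p = 2.01e-05) and 0.40 (SE 0.05, limma, adjusted p = 0.000494) in TLX+siTLX. SLC30A4, which loads zinc into vesicles, rose by 0.60 ± 0.10 in TLX+siCTL relative to CTL+siCTL (limma, adjusted p = 0.0014) and fell by 0.48 (SE 0.10, limma, adjusted p = 0.0071) in TLX+siTLX relative to TLX+siCTL.

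Of the 14 importers, 2 rose and 3 fell in TLX+siCTL relative to CTL+siCTL (median log2 fold change -0.03), and 2 rose and 3 fell in TLX+siTLX relative to TLX+siCTL (median 0.08). All these calls were among the 11 importers at a mean log2 CPM of 1 or more. Such rows in general rose in 29.3% and fell in 27.4% of cases in the first comparison, and in 23.8% and 22% in the second. SLC39A10, an importer of the plasma membrane, fell, with a log2 fold change of -0.26 ± 0.06 in the first comparison (limma, adjusted p = 0.0111) and rose by 0.83 ± 0.06 in the second (limma, adjusted p = 3.17e-05). Its fall was not called with library medians of all rows centred (log2 fold change -0.14, limma, adjusted p = 0.147) or without S6 (-0.23, limma, adjusted p = 0.0515). SLC39A11 fell, with a log2 fold change of -0.56 ± 0.07 (limma, adjusted p = 0.000357) and rose by 0.31 ± 0.07 (limma, adjusted p = 0.013), its symbol being on 2 rows. Its rise was not called in 3 of the 18 alternatives, among them medians of all rows centred (0.17, limma, adjusted p = 0.103) and without S8 (0.28, limma, adjusted p = 0.0554). SLC39A13, which releases zinc from the secretory pathway, rose by 0.67 ± 0.04 (limma, adjusted p = 6.64e-06) and SLC39A3 by 0.32 ± 0.07 (limma, adjusted p = 0.0105), both in TLX+siCTL. Without S1 the call of SLC39A3 was lost (0.30, limma, adjusted p = 0.0524).

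**Figure D5:**
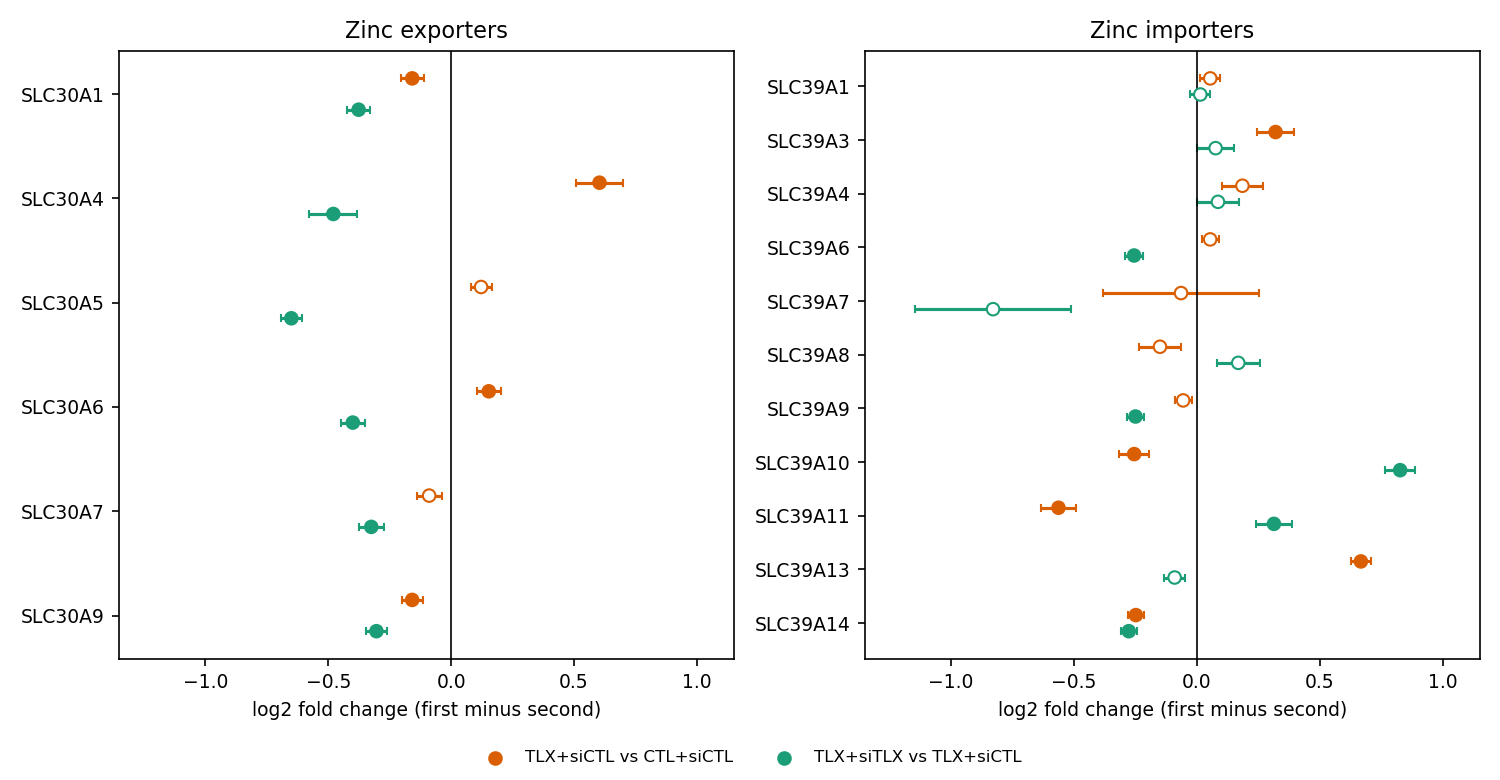
Log2 fold changes with SE (horizontal axes) of the zinc exporters and importers at a mean log2 CPM of 1 or more, in TLX+siCTL against CTL+siCTL and in TLX+siTLX against TLX+siCTL. Filled points passed an adjusted p of 0.05. The 6 exporters are all below 0 in TLX+siTLX against TLX+siCTL, while SLC39A10 is at 0.83.

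Copper is the other physiological metal that metallothioneins hold. Of 14 copper-handling genes, 8 rose and 2 fell in TLX+siCTL relative to CTL+siCTL (median log2 fold change 0.24), and 5 fell and 0 rose in TLX+siTLX relative to TLX+siCTL (median -0.01). All 14 were at a mean log2 CPM of 1 or more, and of such rows 29.3% rose and 27.4% fell in the first comparison and 23.8% rose and 22% fell in the second. ATOX1, the chaperone that carries copper to the copper pumps, rose by 0.52 ± 0.05 (limma, adjusted p = 5.41e-05) and SOD1, the copper-zinc superoxide dismutase, by 0.50 ± 0.03 (limma, adjusted p = 1.15e-05) in TLX+siCTL. SCO1, which delivers copper to cytochrome c oxidase, rose by 0.24 ± 0.04 (limma, adjusted p = 0.000842) and fell by 0.52 (SE 0.04, limma, adjusted p = 2.56e-05) in TLX+siTLX relative to TLX+siCTL. COX11, with the same role, fell there by 0.95 (SE 0.04, limma, adjusted p = 4.01e-06).

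Of 14 genes of the metal and heat shock response, 1 rose and 3 fell in TLX+siCTL relative to CTL+siCTL (median log2 fold change -0.10), and 1 rose and 8 fell in TLX+siTLX relative to TLX+siCTL (median -0.29). All 14 were at a mean log2 CPM of 1 or more, where 27.4% of rows fell in the first comparison and 22% in the second, and centring on medians of all rows shifts log2 fold changes by 0.12 in the first and -0.14 in the second. HMOX1, the heme oxygenase that cadmium strongly induces, fell by 0.58 (SE 0.07, limma, adjusted p = 0.000452) in TLX+siTLX relative to TLX+siCTL. SRXN1, the sulfiredoxin of the oxidative stress response, fell, with a log2 fold change of -0.40 ± 0.05 in TLX+siCTL relative to CTL+siCTL (limma, adjusted p = 0.000303) and one of -0.67 ± 0.05 in TLX+siTLX relative to TLX+siCTL (limma, adjusted p = 3.59e-05). HSPA6, an inducible heat shock protein, fell, with a log2 fold change of -0.73 ± 0.18 in TLX+siCTL (limma, adjusted p = 0.0134), a call lost without S1, S2, S4 or S6 (limma, adjusted p up to 0.0686). HSPA1B fell by 0.68 (SE 0.08, limma, adjusted p = 0.000276) in TLX+siTLX relative to TLX+siCTL, but its symbol is on 5 rows and its reads can be split with HSPA1A, so its value is uncertain. The 1 gene that rose in TLX+siCTL was HSF2, a heat shock transcription factor, by 0.49 ± 0.10 (limma, adjusted p = 0.0041), and the 1 that rose in TLX+siTLX relative to TLX+siCTL was HSPB1, a small heat shock protein, by 0.48 ± 0.07 (limma, adjusted p = 0.0013).

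Another 15 genes were of the glucocorticoid response, the other main inducer of metallothioneins. In TLX+siCTL relative to CTL+siCTL 5 of the 15 rose and 6 fell (median log2 fold change -0.12). In TLX+siTLX relative to TLX+siCTL 4 rose and 3 fell (median 0.12). Among the 12 at a mean log2 CPM of 1 or more, 4 rose and 6 fell in the first comparison (median -0.22). In the second, 4 of these 12 rose and 3 fell (median 0.16). Such rows in general rose in 29.3% and fell in 27.4% of cases in the first comparison, and in 23.8% and 22% in the second. DUSP1, a MAP kinase phosphatase, fell, with a log2 fold change of -1.14 ± 0.07 in TLX+siCTL relative to CTL+siCTL (limma, adjusted p = 4.81e-06), and rose in TLX+siTLX relative to TLX+siCTL by 0.45 ± 0.07 (limma, adjusted p = 0.00137). ERRFI1, an inhibitor of the EGF receptor, fell, with a log2 fold change of -0.89 ± 0.05 (limma, adjusted p = 4.37e-06), and rose in TLX+siTLX by 0.33 ± 0.05 (limma, adjusted p = 0.0019), and CEBPD fell, with a log2 fold change of -0.94 ± 0.09 in TLX+siCTL (limma, adjusted p = 4.72e-05). KLF9, a transcription factor, rose by 0.22 ± 0.07 in TLX+siCTL (limma, adjusted p = 0.0424, a call kept in 9 of 18 alternatives and lost without S1, S2, S3, S4, S6 or S7) and fell by 0.79 (SE 0.07, limma, adjusted p = 9.49e-05) in TLX+siTLX relative to TLX+siCTL. FKBP5 and SGK1 rose in both comparisons. For FKBP5 the rises were 0.47 ± 0.07 (limma, adjusted p = 0.000604) and 0.58 ± 0.07 (limma, adjusted p = 0.000318). For SGK1 they were 0.57 ± 0.07 (limma, adjusted p = 0.000409) and 0.45 ± 0.07 (limma, adjusted p = 0.00256).

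Of 12 genes of iron storage and transport, 2 rose and 6 fell in TLX+siCTL relative to CTL+siCTL (median log2 fold change -0.31). In TLX+siTLX relative to TLX+siCTL 3 rose and 3 fell (median 0.06). All these calls were among the 11 at a mean log2 CPM of 1 or more, whose medians were -0.31 and 0.05. Such rows in general rose in 29.3% and fell in 27.4% of cases in the first comparison, and in 23.8% and 22% in the second. SLC25A37, the mitochondrial iron importer, fell, with a log2 fold change of -0.78 ± 0.03 (limma, adjusted p = 1.01e-06), SLC11A2, a transporter of iron and other divalent metals, with one of -0.52 ± 0.06 (limma, adjusted p = 0.000273) and ACO1, an iron sensor, with one of -0.46 ± 0.03 (limma, adjusted p = 1.58e-05), all in TLX+siCTL. In TLX+siTLX relative to TLX+siCTL, ACO1 rose by 0.13 ± 0.03 (limma, adjusted p = 0.024) and SLC25A37 by 0.12 ± 0.03 (limma, adjusted p = 0.0257), directions that turned with library medians of all rows centred. These calls held in 10 of 18 alternatives for ACO1 and 12 of 18 for SLC25A37, and were lost without S5, S6 or S8, each left out in turn. FTH1, the ferritin heavy chain, fell, with a log2 fold change of -0.31 ± 0.07 in TLX+siCTL relative to CTL+siCTL (limma, adjusted p = 0.00769) and one of -0.44 ± 0.07 in TLX+siTLX relative to TLX+siCTL (limma, adjusted p = 0.00164). Under quantile normalization the value of FTH1 is 0 in both. That method returns 0 for any row with the same rank in every library, so the 0 does not test these falls. On log2(CPM + 1) the log2 fold changes were -0.31 and -0.44, but neither was called (limma, adjusted p = 0.171 and 0.0663). The first was also lost with medians of all rows centred (-0.19, limma, adjusted p = 0.141). The 2 genes that rose in TLX+siCTL relative to CTL+siCTL were FTL and TFRC. FTL, the ferritin light chain, rose by 0.38 ± 0.06 (limma, adjusted p = 0.00105) and TFRC by 0.44 ± 0.04 (limma, adjusted p = 8.68e-05). In TLX+siTLX relative to TLX+siCTL, FTL had a log2 fold change of -0.35 ± 0.06 (limma, adjusted p = 0.00256).

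In TLX+siTLX relative to CTL+siCTL, 0 zinc exporters rose and 5 fell, 4 importers rose and 4 fell, and 5 copper genes rose and 4 fell. Of the metal and heat shock genes 1 rose and 8 fell, of the glucocorticoid genes 2 rose and 8 fell, of the iron genes 1 rose and 7 fell, and of the chromosome neighbours 4 rose and 3 fell. All of these calls were among genes at a mean log2 CPM of 1 or more. Those numbered 6 exporters, 11 importers, 14 copper, 14 metal and heat shock, 12 glucocorticoid, 11 iron and 10 neighbour genes. Among all rows at that mean, 32.4% rose and 31.2% fell in this comparison.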

How the data were processed

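The 9 libraries are described by 2 tables. The authors deposited log2 CPM, read counts scaled to library size, and, in a second table, signed fold changes (a ratio, a fall being minus the inverse), p-values and false discovery rates (FDR) per gene. Which test they ran is not stated in these sources. The tools kallisto 0.44.0, limma and edgeR and the build GRCh38 are named, without roles, per the submitters' processing notes. Columns name the group and a running number (S1 to S9), and 0 columns were left unmapped. With an assumed prior count of 2, the lowest value gives a mean library size of 80.5 M reads, and depths of single libraries were not used. The deposited log2 CPM went into a two-sided limma test (limma 3.58.1, R 4.3.3), a single model with 3 group means over the 9 libraries and a trend of variance with intensity. P-values were adjusted by Benjamini-Hochberg over the 27548 rows, with a threshold of 0.05, and the procedure was checked on simulated data. Log2 fold changes hold the prior count and understate those of low genes. Of the rows, 24790 were placed with GENCODE 29. Members and gene lists were chosen with earlier results of these data known. Every member is named. Of each list, the text names up to 4 genes with the largest absolute log2 fold change in either comparison with TLX+siCTL, among those past the threshold and at a mean log2 CPM of 1 or more. BBS2, OGFOD1, NUP93, MT1JP, HSF2, HSPB1, FKBP5, SGK1, FTL, TFRC, KRT8, GATA3 and ERBB2, outside that rule, were named after their values were seen. There were 18 alternatives, 1 of them (medians of rows at a mean log2 CPM of 1 or more) chosen after seeing the data. Of the rows most like MT1X and MT2A, 1 each is not reported here.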

Additional observations from a re-analysis of the deposited data

How the results depend on the processing

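The counts of metallothionein calls depend on scaling and on single libraries. In TLX+siTLX against TLX+siCTL, 2 genes were called as reported, 5 with library medians of all rows centred and 4 with medians of rows at a mean log2 CPM of 1 or more centred, and 1 to 3 when each library was left out (1 without S5, 3 without S8). In TLX+siTLX against CTL+siCTL, 1 was called as reported, 2 without an intensity trend, 2 on log2(CPM + 1) and 1 to 2 when each library was left out (2 without S9). In TLX+siCTL against CTL+siCTL 4 were called as reported and 4 to 5 when each library was left out. Counts over all rows were 8304, 6518 and 9544 in the 3 comparisons (TLX+siCTL against CTL+siCTL, TLX+siTLX against TLX+siCTL, TLX+siTLX against CTL+siCTL), and 7033 to 8664, 5219 to 6241 and 8312 to 9209 when each library was left out. Centring on medians of all rows, which include many rows near 0, shifts log2 fold changes by 0.12 in TLX+siCTL against CTL+siCTL and by -0.14 in TLX+siTLX against TLX+siCTL. The share of calls that rose is then 64.9% against 49.9% as reported in the first and 29.9% against 53.8% in the second. Under it ACO1 (-0.011) and SLC25A37 (-0.021) reversed in TLX+siTLX against TLX+siCTL. MTF1 reversed in TLX+siTLX against CTL+siCTL without S9, with a range of -0.25 to 0.012 when each library was left out. The cause of these changes was not tested. Direction was the same for MT2A, MT1E, MT1X, MT1F and MT1M in all alternatives run. MT1M is absent where rows below a mean log2 CPM of 1 were left out. MT1M, with 15.7 to 49.7 reads a library at the assumed prior, is limited by depth, and MT1G could not be compared. Summing the rows of a symbol changes no member. No paired analysis was possible because the columns carry no replicate number of the labels.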
